A study of Mus musculus with 24 samples.

Results

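Neuronal microtubule-associated proteins were followed through 10 genes, Map1a, Map1b, Map2, Map4, Map6, Mapt, Dcx, Dclk1, Stmn1 and Stmn2, out of 18193 gene symbols, and they were represented by 37 of the 45037 probe sets of the Affymetrix Mouse 430 2.0 array. A probe set was included when the platform annotation gave it 1 of these gene symbols, or an older Mtap alias of one, and no other symbol. The tissue was cerebral cortex, with the white matter removed, of male FVB mice at postnatal day 7. Fmr1 KO mice lack a working copy of Fmr1, which their WT littermates carry. Silencing of this gene causes fragile X syndrome, and its product FMRP binds RNA. The 24 arrays fell into 4 groups of 6: Fmr1 KO polyribosomal RNA, WT polyribosomal RNA, Fmr1 KO total RNA and WT total RNA. Each lysate combined the cortices of 2 mice and gave 1 polyribosomal and 1 total array, so a replicate is a pool of animals and p-values measure the spread between pools. Total RNA was the 20% of a cleared lysate kept back from the gradient. Polyribosomal RNA came from fractions 10 to 13 of the 16 taken from a sucrose gradient of 20% to 50%, where mRNAs carry at least 6 ribosomes. The comparisons ask whether loss of FMRP changes the amount of these mRNAs, or the share of them on heavy polyribosomes.

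Microtubules are polymers of tubulin that give axons and dendrites their shape and serve as tracks for transport. Structural microtubule-associated proteins bind along the polymer and stabilise it: MAP1B is abundant in growing axons, MAP1A appears as neurons mature, MAP2 is found mostly in dendrites and cell bodies, tau (Mapt) mostly in axons, MAP6 protects microtubules from cold and drugs, and MAP4 is broadly expressed. Doublecortin (Dcx) and the doublecortin-like kinase Dclk1 bind microtubules in migrating and differentiating neurons, while the stathmins Stmn1 and Stmn2 bind free tubulin and promote disassembly. Map1b mRNA is a long-known ligand of FMRP, which is thought to hold back the translation of bound mRNAs.

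The deposited values are on a log2 scale, and a difference below is a difference of log2 values, polyribosomal minus total or Fmr1 KO minus WT. The arrays had nearly equal medians, so each difference is relative to the other mRNAs of the array and not an absolute amount. Whether polyribosomal and total arrays were normalised together was not given in the sources used here. Fmr1 itself checked the genotype labels. At its brightest probe set it averaged 6.19 ± 0.48 in Fmr1 KO and 9.90 ± 0.21 in WT polyribosomal RNA, and 6.38 ± 0.16 in Fmr1 KO and 9.66 ± 0.18 in WT total RNA (SD, n = 6 each). The groups did not overlap, and a two-sided exact permutation test gave p = 0.00216 in either RNA kind, the lowest possible with 924 splits. Arrays of a group correlated at 0.991 to 0.998 over all probe sets. WT polyribosomal array 4 and Fmr1 KO polyribosomal array 5 correlated least with the others of their groups (median r 0.993 each), and results are also given without those lysates. The 5 neuron markers Tubb3, Snap25, Gap43, Nefl and Syt1 were above a log2 value of 4 on every array. Of 7 progenitor markers, Sox2 and Hes5 were at least 4 on every array, while Nes, Pax6, Eomes, Mki67 and Top2a were below 4 on every array. Of 3 endothelial markers, Cldn5 was at least 4 on every polyribosomal array but not on every total array, while Pecam1 and Flt1 were below 4 throughout. The number of arrays limits the precision.

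Heavy polyribosomes and total RNA of the same lysate differed for most of the genes, in both directions. At the brightest probe set of each gene (that of highest average level in the 24 arrays), Map1a, Map1b, Map2 and Map4 were lower and Map6, Mapt and Stmn2 higher in polyribosomal than in total RNA, in Fmr1 KO as in WT lysates. Dcx, Dclk1 and Stmn1 did not pass the test in either genotype. A call means a limma adjusted p under 0.05 over all probe sets tested, with the lysate as a block (6 lysates per genotype). Such calls are common: 66.9% of the 9700 genes tested at 1 probe set in Fmr1 KO lysates (38.7% higher, 28.2% lower) and 65.9% of the 9725 tested in WT lysates (37.5% higher, 28.4% lower) were called. The 7 of 10 called here are near that background. The plot of levels shows the 24 arrays for each gene.

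**Figure D1:**
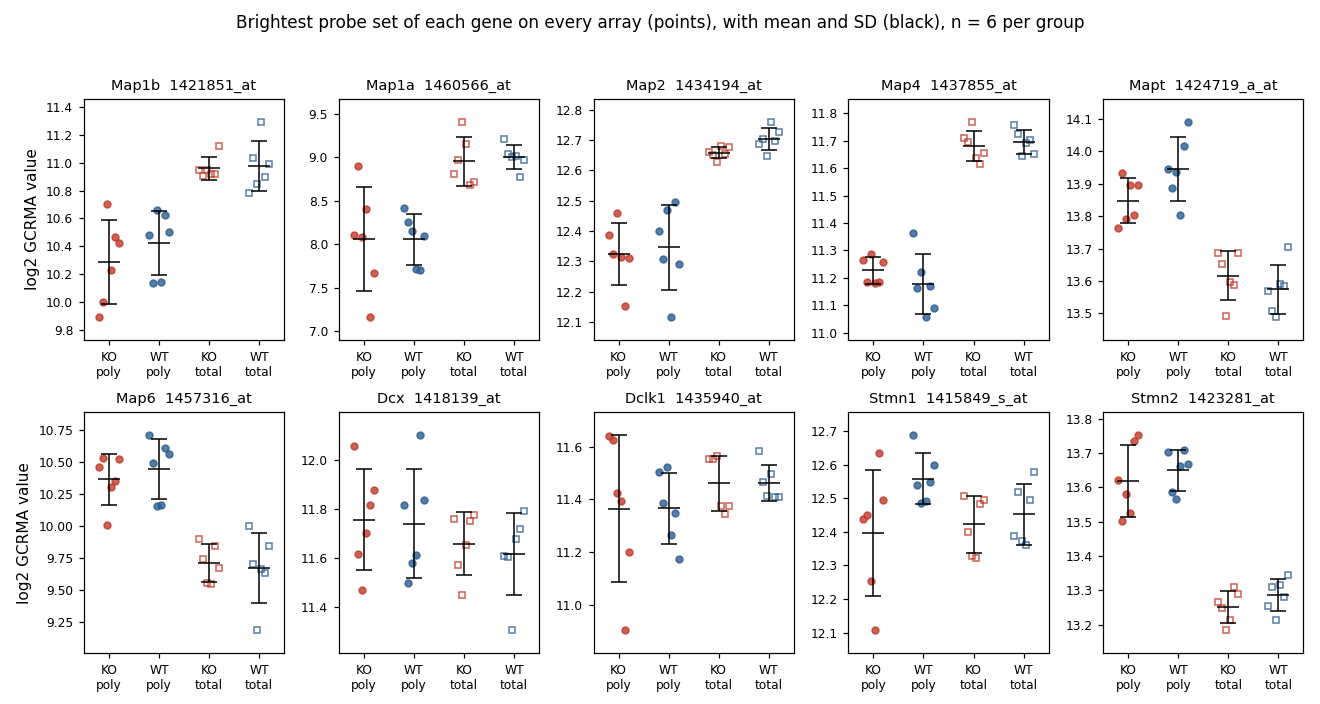
Log2 value (vertical axis) of the brightest probe set of each of the 10 genes on each of the 24 arrays, in 4 groups of 6; points are arrays, and the black marks give the group mean and SD. Map1a, Map1b, Map2 and Map4 lie lower in the polyribosomal than in the total groups, and Map6, Mapt and Stmn2 higher, while Fmr1 KO and WT groups of one RNA kind overlap for every gene.

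The 2 MAP1 genes encode large proteins that are made as precursors and split into heavy and light chains. Map1b (probe set 1421851_at) had log2 values of 9.90, 10.33 and 10.70 (lowest, median, highest) in Fmr1 KO polyribosomal RNA, against 10.90, 10.94 and 11.12 in Fmr1 KO total RNA. Its values were 10.14, 10.49 and 10.66 in WT polyribosomal RNA and 10.78, 10.95 and 11.29 in WT total RNA. All polyribosomal arrays were below all total arrays in both genotypes. Within lysates the difference lay between -1.06 and -0.25 in Fmr1 KO and between -1.15 and -0.19 in WT, so its size varied from pool to pool while its sign did not. The mean difference was -0.67 (SE 0.107, limma adjusted p = 0.00018) in Fmr1 KO and -0.55 (SE 0.129, limma adjusted p = 0.00299) in WT. The polyribosomal level was thus 0.627 of the total level in Fmr1 KO lysates and 0.684 of it in WT lysates, each relative to the rest of the array. With the mean of its probe sets in place of the brightest, the Map1b difference was -1.14 in Fmr1 KO and -1.03 in WT. That mean includes the dimmest probe set, 1421850_at, at -2.06 in Fmr1 KO and -1.96 in WT, described below. Among all genes, Map1b stood at percentile 13.0 of this difference in Fmr1 KO and 16.9 in WT.

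Map1a (1460566_at) showed the largest fall among the 10 brightest probe sets. Fmr1 KO lysates had 7.17, 8.10 and 8.91 in polyribosomal RNA, against 8.68, 8.89 and 9.40 in total RNA. WT lysates had 7.71, 8.12 and 8.42 in polyribosomal RNA, against 8.78, 9.02 and 9.21 in total RNA. The WT groups did not overlap, whereas those of Fmr1 KO did, and polyribosomal RNA was lower in 6 of 6 lysates of each genotype. The difference was -0.90 (SE 0.157, limma adjusted p = 0.000376) in Fmr1 KO and -0.95 (SE 0.0933, limma adjusted p = 6.14e-06) in WT. Lysate 2 of Fmr1 KO stood near 0, at -0.06, and lysate 5 reached -1.51. The mean of its probe sets gave -0.55 in Fmr1 KO and in WT. Map1a was at percentile 8.97 of all genes in Fmr1 KO and 8.79 in WT.

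MAP2 and MAP4 share a tubulin-binding repeat region with tau. Map2 (1434194_at) had 12.15, 12.32 and 12.46 in Fmr1 KO polyribosomal RNA and 12.63, 12.66 and 12.68 in Fmr1 KO total RNA. In WT it had 12.12, 12.35 and 12.50 in polyribosomal RNA and 12.65, 12.70 and 12.76 in total RNA. The groups did not overlap. The total arrays lay close together, and the spread was in the polyribosomal arrays. The difference was -0.33 (SE 0.0774, limma adjusted p = 0.00257) in Fmr1 KO and -0.36 (SE 0.0883, limma adjusted p = 0.00406) in WT, and the mean of the Map2 probe sets gave -0.81 in Fmr1 KO and -0.78 in WT. That mean includes the dim 1440699_at, at -1.31 in Fmr1 KO and -1.38 in WT. As described below, this probe set passed the filter through its total groups. Map4 (1437855_at) had 11.18, 11.22 and 11.29 in Fmr1 KO polyribosomal RNA and 11.62, 11.67 and 11.77 in Fmr1 KO total RNA. In WT it had 11.06, 11.17 and 11.36 in polyribosomal RNA and 11.65, 11.70 and 11.76 in total RNA. Here too no polyribosomal array reached a total array. The difference was the most even of the 4 from lysate to lysate, -0.51 to -0.40 in Fmr1 KO and -0.63 to -0.39 in WT. It averaged -0.45 (SE 0.0721, limma adjusted p = 0.000186) in Fmr1 KO and -0.52 (SE 0.0788, limma adjusted p = 0.000152) in WT. The mean of the Map4 probe sets was not called, at 0.0310 in Fmr1 KO and 0.0766 in WT.

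RefSeq's promoter table (GRCm38.p6) matched 6 of the 10 genes, among them the 4 whose brightest probe sets were lower on polyribosomes. The promoters of these 4 are printed for that shared direction, which 1416092_a_at and 1416091_at of Map4 did not share. Mapt, Map6 and Stmn2, whose brightest probe sets were higher on polyribosomes, had no window. The windows therefore give no contrast between the directions. Each window runs 5′ to 3′ from 250 bases before to 50 bases after an annotated start, which is base 251. Capitals mark the GC box GGGCGG, a motif bound by SP1-family factors, and TATAAA, a form of the TATA box, each searched on both strands with overlapping matches counted. On the other strand the GC box reads CCGCCC.
Map1b (chr13:99516553-99516852, minus strand): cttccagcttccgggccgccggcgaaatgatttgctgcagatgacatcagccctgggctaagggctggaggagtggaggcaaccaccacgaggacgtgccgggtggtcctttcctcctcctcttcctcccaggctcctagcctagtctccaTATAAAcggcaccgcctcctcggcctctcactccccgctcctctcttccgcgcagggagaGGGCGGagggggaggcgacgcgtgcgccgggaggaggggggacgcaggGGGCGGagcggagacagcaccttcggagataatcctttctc
Map1a (chr2:121289352-121289651, plus strand): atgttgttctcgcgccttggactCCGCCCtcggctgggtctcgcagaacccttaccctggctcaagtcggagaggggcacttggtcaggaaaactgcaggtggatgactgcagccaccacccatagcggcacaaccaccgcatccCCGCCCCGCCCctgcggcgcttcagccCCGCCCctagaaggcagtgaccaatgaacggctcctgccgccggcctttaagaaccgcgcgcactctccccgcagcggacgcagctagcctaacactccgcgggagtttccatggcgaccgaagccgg
Map2 (chr1:66175079-66175378, plus strand): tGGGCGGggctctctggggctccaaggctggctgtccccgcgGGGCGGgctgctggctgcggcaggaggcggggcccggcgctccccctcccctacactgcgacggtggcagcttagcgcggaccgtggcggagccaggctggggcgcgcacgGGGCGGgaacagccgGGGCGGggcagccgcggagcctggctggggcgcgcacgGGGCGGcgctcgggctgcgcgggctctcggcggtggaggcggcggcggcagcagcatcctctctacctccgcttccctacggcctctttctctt
Map4 (chr9:109931524-109931823, plus strand): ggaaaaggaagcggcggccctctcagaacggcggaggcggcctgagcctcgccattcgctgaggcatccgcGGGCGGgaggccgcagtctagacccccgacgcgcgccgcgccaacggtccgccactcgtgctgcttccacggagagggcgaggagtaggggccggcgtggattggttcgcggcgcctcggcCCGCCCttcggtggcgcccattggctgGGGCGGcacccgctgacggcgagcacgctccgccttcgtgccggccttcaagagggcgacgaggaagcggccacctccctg
Map1b held 2 GC boxes and 1 TATAAA, Map1a held 4 GC boxes, Map2 held 5 and Map4 held 3 at this start. Neither of the 2 windows of Dcx nor of the 2 of Dclk1 held a GC box, and a further window of Map4 held none. Each of the Dcx windows, which overlap, held 1 TATAAA. Of all 32851 windows of this length in the table, 35.7% held a GC box and 13.6% held TATAAA. These matches describe letters only, and the arrays measured RNA, not binding at these sites.

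Mapt, Map6 and Stmn2 were higher in polyribosomal than in total RNA at their brightest probe sets. Mapt (1424719_a_at) had 13.76, 13.85 and 13.93 in Fmr1 KO polyribosomal RNA, against 13.49, 13.62 and 13.69 in Fmr1 KO total RNA. WT polyribosomal RNA had 13.80, 13.94 and 14.09, against 13.49, 13.58 and 13.70 in WT total RNA. The groups did not overlap in either genotype. The difference was 0.23 (SE 0.075, limma adjusted p = 0.0177) in Fmr1 KO and 0.37 (SE 0.078, limma adjusted p = 0.00147) in WT. Without lysate 4 the Fmr1 KO value was 0.22 and no longer passed (limma adjusted p = 0.0602). The mean of the Mapt probe sets gave 0.47 in Fmr1 KO and 0.63 in WT. Map6 (1457316_at) had the largest rise among the 10 brightest probe sets. It had 10.01, 10.41 and 10.53 in Fmr1 KO polyribosomal RNA and 9.55, 9.71 and 9.90 in Fmr1 KO total RNA, and 10.16, 10.53 and 10.71 in WT polyribosomal RNA and 9.19, 9.68 and 10.00 in WT total RNA. Every polyribosomal array was above every total array of its genotype. The Map6 difference was 0.65 (SE 0.0847, limma adjusted p = 3.95e-05) in Fmr1 KO, a level 1.57 times the total one, and 0.78 (SE 0.0891, limma adjusted p = 1.9e-05) in WT, 1.71 times. Its other probe set was called lower, and the mean of both was not called, at -0.0914 in Fmr1 KO and -0.0063 in WT. Stmn2 (1423281_at) had 13.50, 13.60 and 13.75 in Fmr1 KO polyribosomal RNA and 13.18, 13.26 and 13.31 in Fmr1 KO total RNA. WT polyribosomal RNA had 13.57, 13.67 and 13.71 and WT total RNA 13.21, 13.29 and 13.35. These groups were also apart, with differences of 0.37 (SE 0.0743, limma adjusted p = 0.00105) in Fmr1 KO and 0.36 (SE 0.0768, limma adjusted p = 0.00152) in WT.

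The remaining 3 genes showed no called difference at their brightest probe sets. Dcx (1418139_at) had 11.47, 11.76 and 12.06 in Fmr1 KO polyribosomal RNA and 11.45, 11.70 and 11.77 in Fmr1 KO total RNA. In WT it had 11.50, 11.71 and 12.10 in polyribosomal and 11.31, 11.64 and 11.79 in total RNA. The groups overlapped throughout. The Dcx difference was 0.10 (95% interval -0.07 to 0.27) in Fmr1 KO, where all 6 lysates were above 0, and 0.12 (-0.08 to 0.32) in WT. Dclk1 (1435940_at) differed by -0.10 in both, with intervals of -0.29 to 0.10 in Fmr1 KO and -0.28 to 0.09 in WT. Stmn1 (1415849_s_at) differed by -0.03 (-0.20 to 0.15) in Fmr1 KO and by 0.11 (-0.07 to 0.28) in WT, where all 6 lysates were above 0. The other Stmn1 probe set, described below, was called higher in both genotypes. Also described below, 1418141_at of Dcx was called higher in Fmr1 KO alone, and further probe sets of Dclk1 were called in opposite directions.

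All 10 genes had further probe sets, and these did not all give the same answer. Of the 37 probe sets, 35 passed the filter (a log2 value of at least 4 on at least 6 of the arrays compared) in the polyribosomal comparisons, and 2 of Map4 (1443702_at and 1439467_at) were dim on every array. Among the 35, 11 were higher, 12 lower and 12 not called in Fmr1 KO, where 65.9% of 17854 probe sets were called (37.2% higher, 28.7% lower). The counts were again 11, 12 and 12 in WT, where 65.4% of 17893 were called (36.2% higher, 29.1% lower). Among these, 2 dim probe sets of Map2 and Dclk1 described below passed only through their total groups. Under a filter at a log2 value of 6, 31 were left, of which 11 were higher and 10 lower in each genotype. There 1421850_at of Map1b passed only through its total groups, since it was below 6 on every polyribosomal array. The Fmr1 KO and WT lysates share no array. They shared 10 of the 11 members called higher in each (90.9% of each list) and all 12 called lower (100%). The members called higher in 1 genotype alone were 1418141_at of Dcx, at 0.27 in Fmr1 KO (limma adjusted p = 0.00992) and 0.22 in WT (limma adjusted p = 0.0779), and 1416091_at of Map4, described below. Neither was called for a genotype difference in the polyribosomal minus total value. Over all probe sets the shared part was 87.3% of the Fmr1 KO list and 89.2% of the WT list for higher calls, and 90.8% and 90.0% for lower ones.

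All 3 probe sets of Map1b were lower on polyribosomes, but by unequal amounts. Probe set 1450397_at differed by -0.69 (SE 0.132) in Fmr1 KO and -0.58 (SE 0.116) in WT, close to the brightest one. The dimmest, 1421850_at, had 4.13, 4.98 and 5.85 in Fmr1 KO polyribosomal RNA, against 6.50, 7.06 and 7.52 in Fmr1 KO total RNA, and 4.82, 5.24 and 5.70 in WT polyribosomal RNA, against 6.93, 7.17 and 7.61 in WT total RNA. There the 2 groups of each genotype were well apart. Its difference was -2.06 (SE 0.211, limma adjusted p = 6.79e-06) in Fmr1 KO and -1.96 (SE 0.125, limma adjusted p = 2.61e-07) in WT, so the polyribosomal level was 4.16 times lower than the total one in Fmr1 KO and 3.88 times lower in WT. The 3 brighter probe sets of Map2 were lower, with differences from -0.33 to -0.95 in Fmr1 KO and from -0.36 to -0.87 in WT. The dimmest, 1440699_at, was at -1.31 in Fmr1 KO and -1.38 in WT. It reached a log2 value of 4 on 2 of 6 Fmr1 KO and 3 of 6 WT polyribosomal arrays but on all total arrays, so it passed the filter through the total groups. The 4 probe sets of Mapt were all higher, from 0.23 to 0.78 in Fmr1 KO and from 0.37 to 0.99 in WT, with the largest value at 1417885_at. Both Stmn2 probe sets rose as well. The dimmer Map1a probe set, 1455779_at, was at -0.21 in Fmr1 KO (limma adjusted p = 0.0578) and -0.15 in WT (limma adjusted p = 0.120), so the fall of Map1a rests on 1 probe set.

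**Figure D2:**
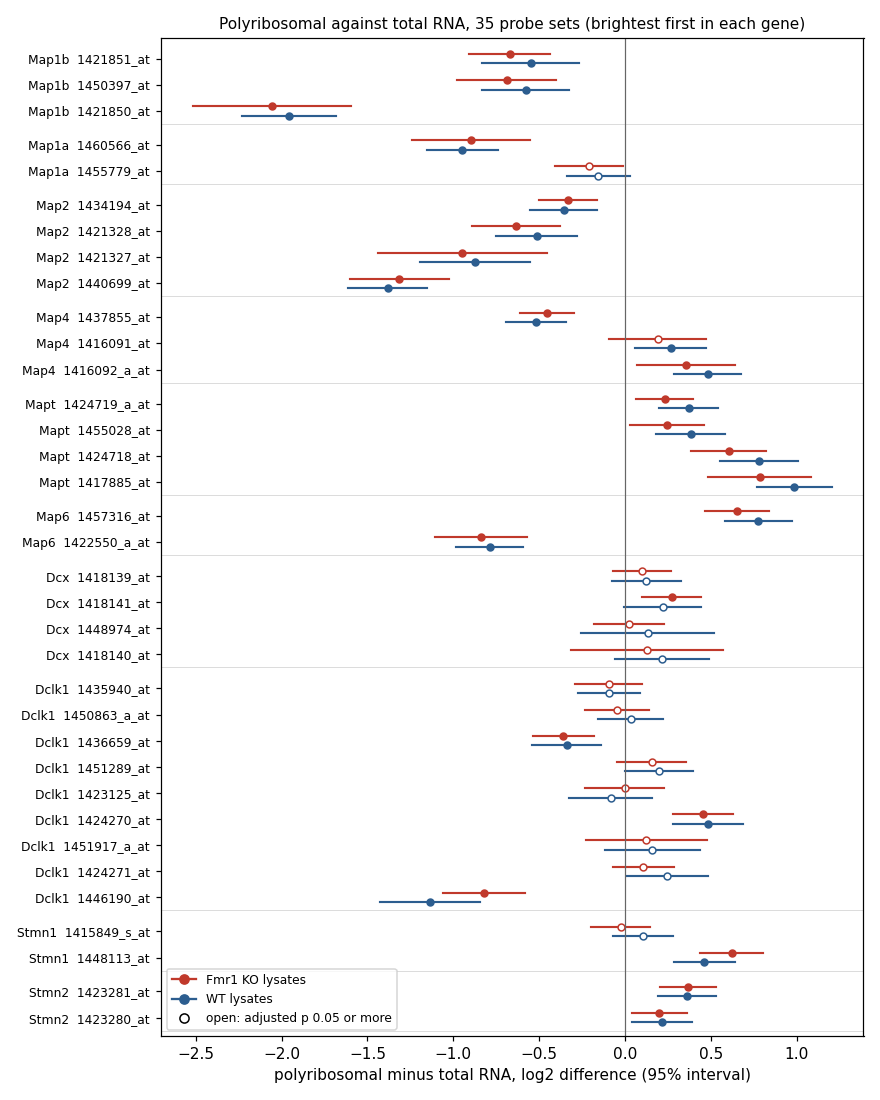
Polyribosomal minus total log2 difference (horizontal axis) of the 35 tested probe sets of the 10 genes, Fmr1 KO above WT, as points with 95% intervals; filled points passed the test and open points did not. The probe sets of Map1b and Map2 are all below 0 and those of Mapt and Stmn2 all above 0, while Map4, Map6 and Dclk1 have filled points on both sides.

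Probe sets of Map4, Map6 and Dclk1 were called in opposite directions within the gene, in both genotypes. For Map6, 1422550_a_at had 6.17, 7.11 and 7.47 in Fmr1 KO polyribosomal RNA and 7.38, 7.79 and 8.37 in Fmr1 KO total RNA, and 6.78, 7.06 and 7.49 in WT polyribosomal RNA and 7.65, 7.84 and 8.20 in WT total RNA. That is a fall of -0.84 (SE 0.122, limma adjusted p = 9.55e-05) in Fmr1 KO and -0.79 (SE 0.0896, limma adjusted p = 1.77e-05) in WT, beside the rise at 1457316_at. The polyribosomal and total groups of 1422550_a_at overlapped in Fmr1 KO and were apart in WT, and polyribosomal RNA was lower in 6 of 6 lysates of each. For Map4, 1416092_a_at differed by 0.36 (limma adjusted p = 0.0311) in Fmr1 KO and 0.48 (limma adjusted p = 0.000593) in WT, and 1416091_at by 0.19 (not called, limma adjusted p = 0.21) and 0.27 (limma adjusted p = 0.0269). Among the 9 probe sets of Dclk1, 1424270_at was higher by 0.46 in Fmr1 KO and 0.48 in WT, while 1436659_at was lower, at -0.36 in Fmr1 KO and -0.34 in WT, and the opposite calls rest on these. Probe set 1446190_at was at -0.82 in Fmr1 KO and -1.13 in WT, but it reached a log2 value of 4 on 5 of 6 Fmr1 KO and 3 of 6 WT polyribosomal arrays and on all total arrays, so it too passed the filter through the total groups. The other 6 probe sets of Dclk1 were not called and lay between -0.10 and 0.15 in Fmr1 KO and between -0.10 and 0.25 in WT. Probe sets 1448974_at and 1418140_at of Dcx were not called either, at 0.02 and 0.13 in Fmr1 KO and 0.13 and 0.22 in WT. Probe sets called in opposite directions occurred in 3 of these 10 genes, against 4.63% of the 4208 genes with several tested probe sets in Fmr1 KO and 4.77% of 4217 in WT. A gene with more probe sets has more chances of this, and the share was 2.47% in Fmr1 KO and 2.51% in WT among genes with exactly 2, the number that Map6 has. No share was taken for genes with as many tested probe sets as Map4 or Dclk1. Stmn1 differed by probe set too: 1448113_at was higher by 0.62 (SE 0.0845, limma adjusted p = 5.76e-05) in Fmr1 KO and by 0.46 (SE 0.0812, limma adjusted p = 0.000433) in WT. The place of each probe set along the transcripts was not analysed here.

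**Figure D3:**
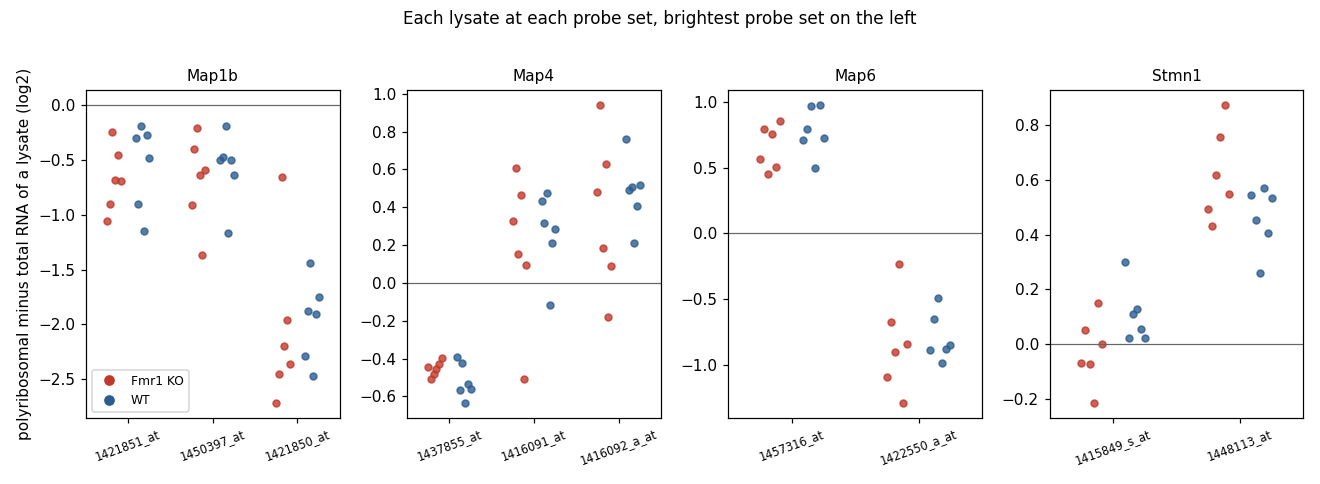
Polyribosomal minus total log2 difference of each lysate (points, vertical axis) at each tested probe set of Map1b, Map4, Map6 and Stmn1, Fmr1 KO left of WT, with the brightest probe set on the left of each panel. All points of Map1b are below 0, Map6 has its 12 points above 0 at 1457316_at and its 12 below 0 at 1422550_a_at, and Stmn1 lies near 0 at one probe set and above 0 at the other.

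Between genotypes no member was called, and Map1b gave no call at any probe set. In bulk tissue, less RNA per cell and fewer cells that hold it cannot be told apart in this comparison. In polyribosomal RNA 0 of 34 member probe sets passed limma's test, where 0.0170% of 17687 probe sets did, and 1440699_at of Map2 was too dim there to be tested. In total RNA 0 of 35 passed, where 0.0392% of 17850 did. None of the members had an unadjusted p under 0.05 in either RNA kind, against 2.67% of all probe sets in polyribosomal and 5.00% in total RNA. For the brightest probe set of Map1b, the polyribosomal values given above overlapped between genotypes, with a difference of -0.14 (95% interval -0.45 to 0.17, limma adjusted p = 1.00). That interval spans 0.732 to 1.13 times the WT level. In total RNA the difference was -0.01 (95% interval -0.18 to 0.16, limma adjusted p = 0.998), or 0.88 to 1.11 times the WT level. The interval in polyribosomal RNA was the wider one, so smaller changes of Map1b were detectable in total RNA than on polyribosomes. The other probe sets of Map1b gave -0.26 (1450397_at) and -0.29 (1421850_at) on polyribosomes, against -0.15 and -0.19 for total RNA.

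The other structural proteins gave small values as well. At the brightest probe sets the differences in polyribosomal RNA ran from -0.16 (Stmn1) to 0.05 (Map4), and in total RNA from -0.05 (Map1a) to 0.04 (Mapt). Fmr1 KO and WT groups overlapped for each of the 10 genes in both RNA kinds. Map1a was the least well measured of the 10, at 0.00 with an interval of -0.49 to 0.49 in polyribosomal RNA. Map2 in total RNA was the best measured, at -0.05 with an interval of -0.14 to 0.05, and was lower in Fmr1 KO in 6 of 6 lysate pairs of the same number without passing the test. Over all member probe sets tested, 27 of 34 differences were below 0 in polyribosomal RNA (median -0.08) and 23 of 35 in total RNA (median -0.02), while the medians over all probe sets were 0.01 and -0.01. The probe sets of a gene share its mRNA, so these counts are not independent.

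The lowest unadjusted p in polyribosomal RNA belonged to the dimmest tested Dclk1 probe set, 1446190_at, which averaged 4.39 ± 0.37 in Fmr1 KO and 3.99 ± 0.39 in WT (SD, n = 6 each). Its difference was 0.39 (SE 0.191, limma adjusted p = 1.00), higher in Fmr1 KO in 6 of 6 pairs of the same number, and the groups overlapped. Next came 1448113_at of Stmn1, at 12.43 ± 0.12 in Fmr1 KO and 12.26 ± 0.15 in WT, with a difference of 0.17 (SE 0.0967, limma adjusted p = 1.00). The brightest Stmn1 probe set pointed the other way, at -0.16 (SE 0.0998, limma adjusted p = 1.00).

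**Figure D4:**
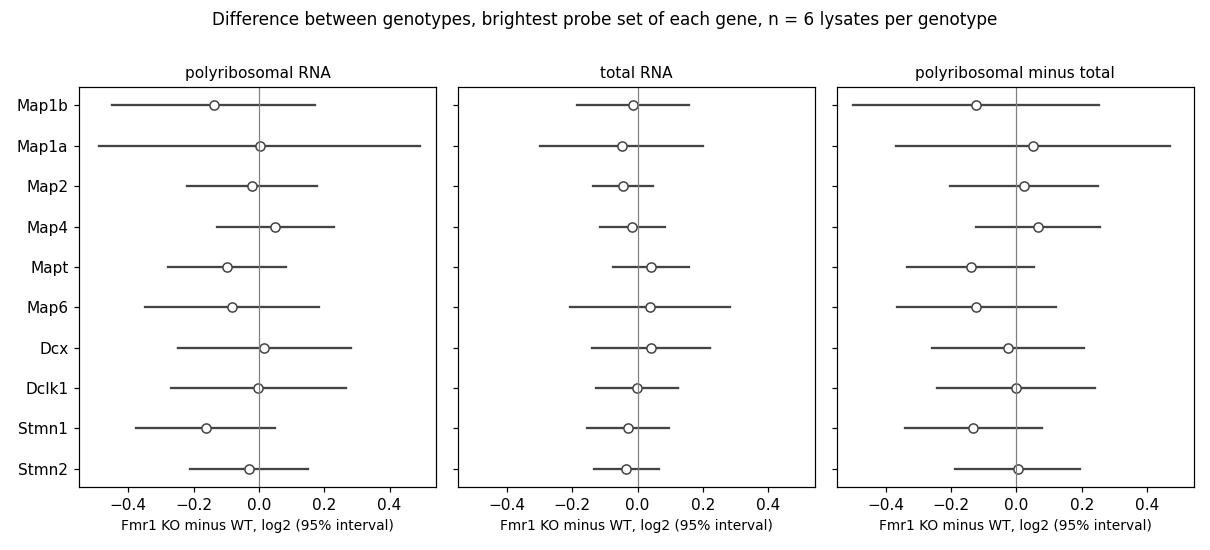
Fmr1 KO minus WT log2 difference (points) with its 95% interval (bars) at the brightest probe set of each of the 10 genes, in polyribosomal RNA, in total RNA and in the polyribosomal minus total difference. All 30 intervals include 0, and for each gene that of total RNA is narrower than that of polyribosomal RNA.

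Whether FMRP loss changes the level of the members on heavy polyribosomes relative to total RNA was tested on the 12 lysate differences, 6 of Fmr1 KO against 6 of WT. None of 35 member probe sets was called, where 0% of 18544 probe sets were. No member had an unadjusted p under 0.05, against 442 of all probe sets. Map1b had a genotype difference of -0.12 (95% interval -0.50 to 0.25, limma adjusted p = 0.999). As a ratio of Fmr1 KO to WT, that interval spans 0.707 to 1.19. Mapt was at -0.14 (-0.34 to 0.06), Stmn1 at -0.13 (-0.34 to 0.08) and Map6 at -0.12 (-0.37 to 0.12), while Map4 was at 0.07 (-0.12 to 0.26) and Map1a at 0.05 (-0.37 to 0.47). The remaining 4 brightest probe sets lay between -0.03 and 0.02. Over the 35 probe sets the median was -0.05, with 26 below 0, and over all probe sets it was 0.02.

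The spread between lysates was larger in polyribosomal than in total RNA for most members. The SD was larger in 25 of 35 probe sets in Fmr1 KO (71.4%) and in 31 of 35 in WT (88.6%), against 77.4% and 82.0% of all probe sets tested. The members were near the background in this.

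The genes whose profile over the 24 arrays was most like that of Map1b were sought by the root mean square difference of the log2 values, after the mean of each gene was taken off. Among 9646 genes at 1 probe set each, the median of this measure was 0.477. Birc6, which encodes a very large inhibitor-of-apoptosis protein with ubiquitin-conjugating activity, was closest at 0.149. Smchd1, a chromatin protein of the inactive X chromosome, followed at 0.184, then Eml5, of a family of microtubule-binding proteins, at 0.185, the nucleosome-binding Hmgn3 at 0.186 and the axon guidance receptor Robo1 at 0.187. Their polyribosomal minus total differences were -0.76, -0.45, -0.40, -0.65 and -0.60 in Fmr1 KO, in this order, and -0.55, -0.56, -0.33, -0.76 and -0.53 in WT. A low value means that 2 profiles run close over these arrays and no more.

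Around the 10 genes, 7 lists of other microtubule genes held 92 entries, of which 86 were measured in the polyribosomal comparisons. Of these, 32 were higher and 25 lower on polyribosomes in Fmr1 KO, and 32 higher and 21 lower in WT, with medians of 0.07 and 0.08. These counts are near the background of 66.9% of all genes called in Fmr1 KO (38.7% higher, 28.2% lower) and 65.9% in WT (37.5% higher, 28.4% lower). The counts of the single lists below stand against the same shares, and some lists are small. None of 84 was called between genotypes in polyribosomal RNA, none of 86 in total RNA and none of 86 in the difference of differences. The relatives of the stathmins and doublecortins lay higher on polyribosomes: 3 of 4 measured were called in Fmr1 KO (median 0.52) and 4 of 4 in WT (median 0.52). The largest in WT was Dclk2 at 0.78 in Fmr1 KO and 0.76 in WT, and the smallest Stmn3 at 0.27 and 0.25. Tubulin folding and modification genes split, with 9 higher and 5 lower of 17 in Fmr1 KO and 11 higher and 4 lower in WT. There Tbcc, a cofactor that folds tubulin, was at 1.35 in Fmr1 KO and 1.23 in WT, and Svbp, the partner of the enzymes that remove the terminal tyrosine of tubulin, at -2.00 and -2.10.

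Genes that bind microtubule ends were called lower in 9 and higher in 5 of 18 cases in Fmr1 KO and lower in 6 and higher in 4 in WT. The end-binding protein gene Mapre1 rose by 0.78 in Fmr1 KO and 0.73 in WT, and Clasp1, whose protein stabilises growing ends, was at -1.07 and -0.93. Among 10 other structural genes, 1 was higher and 2 were lower in each genotype, from Map7d1 at 0.25 in Fmr1 KO and 0.32 in WT to Map1lc3a, a light-chain partner of the MAP1 proteins, at -1.51 and -1.40. Kinases and phosphatases that act on these proteins, and their scaffolds, gave 10 higher and 5 lower of 23 in Fmr1 KO and 8 higher and 4 lower in WT. Mark2, a kinase that phosphorylates tau and MAP2, was at 0.82 in Fmr1 KO and 0.87 in WT, and Mapk8ip1, a scaffold of the JNK pathway, at -2.98 and -2.73. Of 4 measured severing enzymes, Katnal1 rose (0.71 in Fmr1 KO, 0.65 in WT) and Fign was lower (-1.62 and -1.22). Of 10 migration genes, 3 rose in each genotype, while 3 were lower in Fmr1 KO and 4 in WT, with Pafah1b3 at 0.54 and 0.40 and Reln at -0.79 and -0.87.

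Some marker genes of the cell types present were called between polyribosomal and total RNA as well. Over all genes, 38.7% were called higher and 28.2% lower in Fmr1 KO, and 37.5% and 28.4% in WT. Of the 5 neuron markers, 2 were higher on polyribosomes in Fmr1 KO and 3 in WT, and none was lower. Their mean level per array was 12.5 to 12.7 in Fmr1 KO and 12.6 to 12.8 in WT polyribosomal RNA, against 12.4 to 12.6 in Fmr1 KO and 12.5 to 12.6 in WT total RNA. Of the 4 interneuron markers 3 were lower in each genotype, and of the 4 oligodendrocyte markers measured 2 were higher and 1 lower. Of 3 excitatory neuron markers measured, 1 was higher and 1 lower in each genotype. Of 5 astrocyte markers, 1 was higher in each genotype and 1 was lower in WT. Of 3 choroid plexus markers, Ttr alone was measured, and it was higher on polyribosomes in each genotype. Its Fmr1 KO minus WT difference was -2.35 in polyribosomal and -2.01 in total RNA. The mean level of the 3 ran from 2.63 to 5.89 over Fmr1 KO and from 2.94 to 5.94 over WT polyribosomal arrays. None of these markers was called between genotypes. Their part in the differences of the members was not tested.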

How the data were processed

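RNA was measured on 24 arrays, 6 for each genotype and RNA kind. Per the submitters' processing notes, the authors made the values with GCRMA, a method that corrects background, normalises arrays and summarises probe sets, and the deposited values were read as log2 from their range and nearly equal array medians (3.17 to 3.20). The version of GCRMA was not given in the sources used here, and no scan dates or batches were given.

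Of the 45037 probe sets, 34945 had 1 gene symbol in the platform annotation, 932 had more and 9160 had none. Current symbols and promoters came from RefSeq (GRCm38.p6). Testing used limma 3.58.1 under R 4.3.3 (two-sided, Benjamini-Hochberg over all probe sets tested, threshold 0.05) after a filter of log2 at least 4 on at least 6 arrays compared. Polyribosomal and total RNA were compared with the lysate as a block, since both came from 1 lysate, and genotypes without a block. Arrays of a genotype with the same replicate number were taken as 1 lysate, though the titles give only the number. The scripts were tested on simulated data. Python 3.11.15 with matplotlib 3.10.9 drew the figures.

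All 10 members were named at all probe sets, and described first at the one with the highest mean. From each list of other genes the text names the highest and lowest called polyribosomal minus total value in WT, and for Map1b the 5 genes most alike. The members and lists were chosen with earlier results of these data known.

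After removing group means, Fmr1 KO and WT arrays with the same replicate number correlated at 0.133 to 0.532 in total RNA (6 of 6 pairs above 0.1) and at -0.14 to 0.625 in polyribosomal RNA (4 of 6). The study used littermate pairs, but the labels do not say that the number marks them. For polyribosomal against total arrays of the same number, the correlation was 0.156 to 0.474 in Fmr1 KO and 0.021 to 0.525 in WT. Alternatives tried were other filters, array scaling, eBayes priors, array weights, 1 fit of all arrays, the block, leaving out lysates, and the mean of the probe sets of a gene.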

Additional observations from a re-analysis of the deposited data

Results flagged for a closer look

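Among 140 sets of 6 arrays (35 member probe sets in 4 groups), 9 held an array whose gap to its nearest neighbour exceeded Dixon's 95% critical share of their range, which chance alone gives in about 5% of sets. In Fmr1 KO total RNA, array 3 was low for Map2 at 1421327_at (8.13, next 9.41) and at 1421328_at (10.4992, next 11.01), and array 6 was high for Map1b at 1421851_at (11.1, next 10.95). In WT total RNA, array 3 was low for Mapt at 1417885_at (8.26, next 8.67) and at 1424718_at (9.33, next 9.95) and for Map4 at 1416091_at (10.1, next 10.3), and array 1 was high for Dclk1 at 1436659_at (10.0337, next 9.79). In WT polyribosomal RNA, array 5 was high for Dclk1 at 1436659_at (9.76, next 9.46) and array 3 for Map1a at 1455779_at (5.38, next 5.18). None of the 9 was in the polyribosomal arrays that correlated least with their group.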

How the results depend on the processing

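No member was called between genotypes, in either RNA kind or in the difference of differences, under any of the alternatives run, the replicate block included (0 calls in each). Members called between polyribosomal and total RNA numbered 19 to 24 in Fmr1 KO and 21 to 27 in WT when lysates were left out in turn, against 23 in each, and 21 in Fmr1 KO and 23 in WT with no replicate block. Without Fmr1 KO lysate 5 and WT lysate 4, a choice made after seeing the data, they numbered 24 in Fmr1 KO and 27 in WT. Within a genotype this is the same fit as leaving out that lysate in turn, so both counts are already in these ranges. The mean of the probe sets of a gene turned the sign of Map4 (0.0310, limma adjusted p = 0.787, in Fmr1 KO and 0.0766, limma adjusted p = 0.431, in WT) and of Map6 (-0.0914, limma adjusted p = 0.400, in Fmr1 KO and -0.0063, limma adjusted p = 0.953, in WT), which then lost their calls, since it averages probe sets called in opposite directions. It gave Stmn1 a call, at 0.30 (limma adjusted p = 0.00333) in Fmr1 KO, where the sign turned, and at 0.28 (limma adjusted p = 0.00588) in WT. It kept the calls of Map1b (-1.14 in Fmr1 KO, -1.03 in WT), Map2 (-0.81 and -0.78), Map1a (-0.55 in both) and Mapt (0.47 and 0.63) but moved their values over 1.5 times. The Map1b and Map2 means include the dimmest probe sets of these genes, 1421850_at and 1440699_at, which fell most. Mapt in Fmr1 KO lost its call without replicate 4, as given above. The other 219 of 224 repeats of the 14 called single-gene values kept their direction and call. Part of that count was fixed in advance. Other filters, the eBayes priors, the block and the 1 fit of all arrays leave the mean difference unchanged. They could therefore change a call but not a direction. The repeat without Fmr1 KO lysate 5 and WT lysate 4 also counts a fit of the lysates left out in turn again. With 6 lysates a genotype, the intervals of the members between genotypes reached 0.650 to either side on the log2 scale.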
